A study of Mus musculus with 21 samples.

Results

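The 10 genes described here, Pecam1, Cdh5, Kdr, Flt1, Tek, Tie1, Emcn, Ehd3, Plvap and Eng, are expressed mainly by the endothelial cells that line blood vessels. They were taken by symbol from a short list and linked by Ensembl identifier to the count files, which hold 21657 genes in all. All 10 were found. In the kidney, endothelial cells line the glomerular tuft, the arterioles, the peritubular capillaries and the vasa recta. Their survival and permeability are set largely by vascular endothelial growth factor (VEGF), made by podocytes and tubule cells and read by the receptor encoded by Kdr, while Flt1 encodes a receptor that binds the same ligand and mostly holds it back. Angiopoietins from mural and tubule cells act through Tek and its orphan relative Tie1 to keep vessels stable.

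Kidney RNA was sequenced from 17 female mice of 3 diet groups. The Con group (5 mice) was fed chow, the Ade group (6 mice) chow with 0.2% adenine, which injures the tubules and brings on chronic kidney disease, and the Ade + IMC group (6 mice) chow with 0.2% adenine and 0.06% iodomethylcholine (IMC), an inhibitor of the bacterial enzyme that makes trimethylamine in the gut. Every mouse, controls included, was an apoE knockout on the C57BL/6J background, 4 weeks old at the start, fed for 14 weeks and 18 weeks old at collection, so no group had normal lipoprotein metabolism. The 4 mice fed chow with IMC alone were not analysed here.

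The libraries held 7716126 to 11680809 counted reads in the Con group, 5444833 to 7673215 in the Ade group and 5728589 to 8305968 in the Ade + IMC group. Levels are given in CPM, counts scaled to a library of common size, after TMM scaling. Each member had at least 167 counts in every library, so all passed the filter on low counts, though some calls changed with the filter used. A gene was called when its Benjamini-Hochberg adjusted p-value over all genes tested was below 0.1, the threshold of the study. The Apoe transcript was still read, at 6.10 to 26.7 CPM. Mouse numbers begin with 2, 3 or 4, and the meaning of this first digit is not given in the sources used here. Since whole kidney was used, fewer endothelial cells and less RNA per endothelial cell cannot be told apart.

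Every member had reads in all mice, and per kilobase of exon the order of the levels ran from Plvap, the diaphragm protein of fenestrated capillaries, at 124 ± 21.7 CPM per kb in the Con group (SD, n = 5) down to Flt1 at 9.36 ± 1.76 CPM per kb. Eng, the endoglin co-receptor, was second in each group, at 45.6 ± 5.89 CPM per kb in the Con group, where its range met neither that of Plvap above it nor that of Pecam1 below it. From Pecam1 (20.2 ± 3.62 CPM per kb) through Emcn, Cdh5, Tek, Kdr, Tie1 and Ehd3 to Flt1, each neighbour's range in the Con group overlapped the next. In the Ade group Kdr stood eighth, at 7.15 ± 2.37 CPM per kb, against 14.4 ± 2.28 CPM per kb and the seventh place in the Con group.

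**Figure D1:**
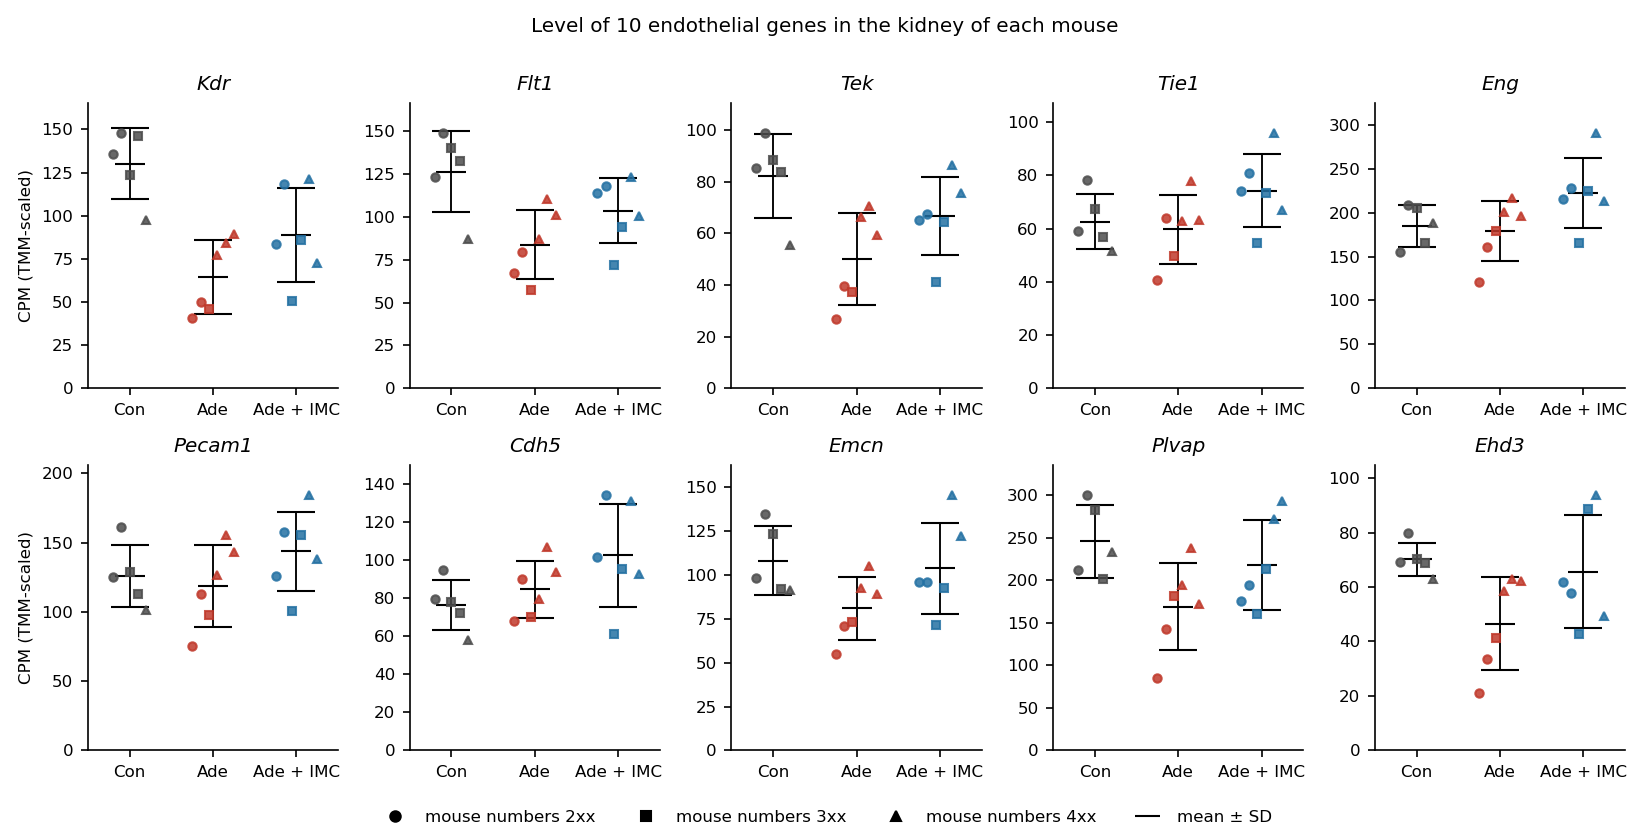
Level of each gene in every mouse, in TMM-scaled CPM on a linear axis from 0. Points are mice (5 Con, 6 Ade, 6 Ade + IMC), the marker shape gives the first digit of the mouse number, and bars show the mean ± SD. For Kdr and Ehd3 all 6 Ade mice sit below all 5 Con mice, while for Tie1, Eng, Pecam1 and Cdh5 the groups overlap. Of all genes compared, 20.1% were lower in every Ade mouse than in every Con mouse.

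The annotated position of each gene on GRCm38 is given here with the promoters of the 4 tyrosine kinase receptors, Kdr, Flt1, Tek and Tie1. Kdr (ENSMUSG00000062960) spans chromosome 5 from 75932827 to 75978458 on the minus strand, and Flt1 (ENSMUSG00000029648) lies on the same chromosome and strand from 147561604 to 147726011. Tek (ENSMUSG00000006386) spans chromosome 4 from 94739289 to 94874976 on the plus strand, and Tie1 (ENSMUSG00000033191) lies on chromosome 4 from 118471191 to 118490061 on the minus strand. The exons of these 4 genes overlap no other annotated gene. The 250 bases before the RefSeq start (GRCm38.p6) are written 5′ to 3′ along the gene's strand, with each GGAA, the core read by ETS family factors, in capitals on either strand (TTCC where it lies on the other strand). They lie at chr5:75978456-75978705 (minus strand), chr5:147726012-147726261 (minus strand), chr4:94739039-94739288 (plus strand) and chr4:118489850-118490099 (minus strand). The Tie1 window lies mostly within the gene span above, which ends at 118490061, so the annotations differ on where Tie1 starts.
Kdr: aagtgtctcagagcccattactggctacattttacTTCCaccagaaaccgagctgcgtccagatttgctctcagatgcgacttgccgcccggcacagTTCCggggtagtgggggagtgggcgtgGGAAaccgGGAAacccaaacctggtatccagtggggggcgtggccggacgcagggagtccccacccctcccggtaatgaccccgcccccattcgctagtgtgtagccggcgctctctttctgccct
Flt1: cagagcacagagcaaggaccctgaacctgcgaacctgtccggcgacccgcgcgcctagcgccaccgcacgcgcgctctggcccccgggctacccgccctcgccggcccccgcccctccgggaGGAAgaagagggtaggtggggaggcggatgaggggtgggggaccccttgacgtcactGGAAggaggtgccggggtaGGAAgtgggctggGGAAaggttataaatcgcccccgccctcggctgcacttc
Tek: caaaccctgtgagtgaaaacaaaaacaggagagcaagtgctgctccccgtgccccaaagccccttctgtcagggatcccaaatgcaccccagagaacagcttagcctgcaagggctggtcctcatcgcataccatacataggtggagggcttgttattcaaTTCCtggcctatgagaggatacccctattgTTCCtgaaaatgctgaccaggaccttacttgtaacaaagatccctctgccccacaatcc
Tie1: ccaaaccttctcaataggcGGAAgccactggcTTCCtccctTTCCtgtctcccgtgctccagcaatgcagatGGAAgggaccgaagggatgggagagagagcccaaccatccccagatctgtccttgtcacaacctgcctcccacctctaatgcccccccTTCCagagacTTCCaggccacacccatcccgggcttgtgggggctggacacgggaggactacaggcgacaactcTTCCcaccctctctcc

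The windows held 4 GGAA cores in Kdr, 4 in Flt1, 2 in Tek and 7 in Tie1. The core is common, being present in 93.4% of the 32851 RefSeq promoter windows of this length. The longer form CNGGAAG, searched on both strands, contains the core and was found in 26.6% of all windows. Among the 7 members whose promoter was in the table it was found in 3, once in Flt1, once in Emcn and at 2 places in Tie1, and it was not in the windows of Kdr, Tek, Eng or Ehd3. The promoters of Pecam1, Cdh5 and Plvap were not used here. Both matches in Tie1, and the whole Ehd3 window (chr17:73804591-73804840), lie within the annotated gene spans and not before them. The matches describe the letters in the windows only.

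The other members lie elsewhere in the genome. Pecam1 (ENSMUSG00000020717) spans chromosome 11 from 106654217 to 106750628 (minus strand) and Cdh5 (ENSMUSG00000031871) chromosome 8 from 104101625 to 104144511 (plus strand). Emcn (ENSMUSG00000054690) spans chromosome 3 from 137341067 to 137432185 (plus strand), Ehd3 (ENSMUSG00000024065) chromosome 17 from 73804134 to 73832094 (plus strand) and Plvap (ENSMUSG00000034845) chromosome 8 from 71497765 to 71511752 (minus strand). Eng (ENSMUSG00000026814) spans chromosome 2 from 32646595 to 32682669 (plus strand), where Fpgs, on the opposite strand, takes in 61 of the 4048 exonic bases. The use of strand in the counting is not stated, so the Eng count could hold a few Fpgs reads.

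Comparing the Ade with the Con group asks what adenine feeding did to these transcripts. In the Ade group 6 of the 10 members fell (Kdr, Tek, Flt1, Ehd3, Plvap and Emcn), 0 rose and 4 (Pecam1, Cdh5, Tie1 and Eng) did not pass the test. Of all 14612 genes tested by edgeR's quasi-likelihood test, 67.3% were called (32.2% lower and 35.1% higher in the Ade group), so a call was common in this comparison. The members' median log2 fold change was -0.46, against 0.019 for all genes tested. The fall depends on how the libraries are scaled. With the total count alone as the scale, which moves the median of all genes from 0.019 to 0.32 on the log2 scale and the share of calls that are higher from 52.2% to 76.2%, Kdr alone was called lower and Cdh5 was called higher, where 71.8% of all genes were called (17.1% lower and 54.7% higher). By DESeq2, which called 51.4% of genes (24.3% lower and 27.1% higher), 6 members were lower and 0 higher.

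**Figure D2:**
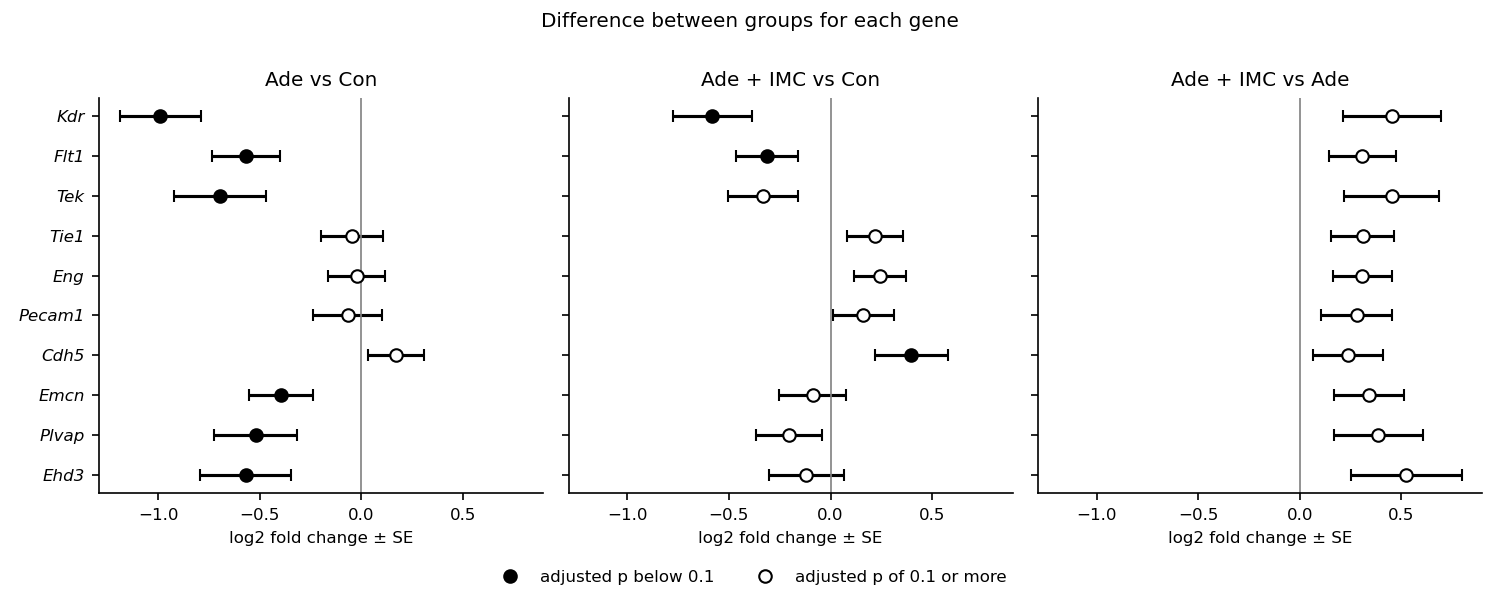
Log2 fold change ± SE of each gene in the 3 comparisons, filled where the adjusted p-value was below 0.1. In Ade vs Con the called genes lie between -0.99 (Kdr) and -0.39 (Emcn), and in Ade + IMC vs Ade all 10 lie above 0 with none called. With total count scaling Pecam1, Tie1 and Eng turn positive in Ade vs Con, and Emcn, Ehd3 and Plvap in Ade + IMC vs Con.

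Kdr, the main signalling receptor for VEGF-A, had the largest difference among the members. Its level in the 5 Con mice was 135.8, 147.7, 123.6, 146.2 and 97.6 CPM, and in the Ade mice it ran from 40.8 to 89.2 CPM with a median of 63.7 CPM. The highest Ade mouse was below the lowest Con mouse, as for 20.1% of all 15064 genes compared, so the groups did not overlap. The log2 fold change was -0.99 (SE 0.20, edgeR adjusted p = 0.000785), a mean of 64.6 ± 21.4 CPM against 130.2 ± 20.6 CPM (SD). Kdr stood at the 6.85th percentile of all log2 fold changes. The call held under each of the 20 alternatives run, with log2 fold changes from -1.19 to -0.70.

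Flt1, which encodes the decoy-like VEGF receptor, also fell. The Con mice had 123.5, 148.7, 140.03, 132.4 and 87.3 CPM, and the Ade mice ran from 57.5 to 110.7 CPM with a median of 83.3 CPM. The groups overlapped, because Con mouse 403 was lower than Ade mice 408 and 409. The log2 fold change was -0.57 (SE 0.17, adjusted p = 0.00952).

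Tek, the angiopoietin receptor, fell and its relative Tie1 did not pass the test. For Tek the Con mice had 85.5, 98.8, 88.4, 83.6 and 55.4 CPM, and the Ade mice ran from 26.8 to 70.6 CPM with a median of 49.4 CPM (log2 fold change -0.70, SE 0.23, adjusted p = 0.0159). The overlap again came from Con mouse 403, the 4 other Con mice being above every Ade mouse. Tie1 ran from 51.7 to 78.1 CPM in the Con mice and from 40.8 to 77.9 CPM in the Ade mice, with a log2 fold change of -0.044 (SE 0.15, adjusted p = 0.814) that became 0.25 (adjusted p = 0.181) with total count scaling. The difference between the changes of Tek and Tie1 was not tested.

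Ehd3, Plvap and Emcn also fell, whereas of the 6 other glomerular and capillary genes 2 rose and 1 fell (median log2 fold change 0.14), or 3 and 1 with total count scaling and 2 and 2 with the digit as a block. Ehd3, an endocytic protein known as a marker of glomerular endothelium, had 69.1, 79.7, 70.2, 68.7 and 63.1 CPM in the Con mice and 21.2 to 62.8 CPM in the Ade mice, with a median of 50.01 CPM. The groups did not overlap, though the highest Ade mouse was close to the lowest Con mouse (log2 fold change -0.57, SE 0.22, adjusted p = 0.0399). Of all 15064 genes compared on this scale, 20.1% were lower in every Ade mouse than in every Con mouse, against 2 of the 10 members. The spread of Ehd3 was wider in the Ade group (SD 17.2 CPM) than in the Con group (SD 6.003 CPM).

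Plvap ran from 202.2 to 299.9 CPM in the Con mice and from 85.5 to 238.5 CPM in the Ade mice (log2 fold change -0.52, SE 0.21, adjusted p = 0.0416). Emcn, the endomucin sialoglycoprotein of capillaries and veins, ran from 91.7 to 135.2 CPM and from 55.3 to 105.3 CPM (log2 fold change -0.39, SE 0.16, adjusted p = 0.0435). Both sets of ranges overlapped. These calls rested on single control mice, since without Con mouse 202 the adjusted p-value was 0.102 for Plvap and 0.122 for Emcn, and without Con mouse 301 it was 0.1004 for Emcn.

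The junctional genes and endoglin did not pass the test. Pecam1, the platelet and endothelial adhesion molecule, ran from 101.6 to 161.4 CPM in the Con mice and from 75.5 to 155.4 CPM in the Ade mice (log2 fold change -0.065, SE 0.17, adjusted p = 0.756). Cdh5, the cadherin of endothelial junctions, had 58.1 to 94.7 CPM and 68.0 to 107.1 CPM (log2 fold change 0.17, SE 0.14, adjusted p = 0.294), and with total count scaling it was 0.47 (adjusted p = 0.0121). Eng, a co-receptor for bone morphogenetic proteins, had 155.1 to 208.9 CPM and 121.2 to 216.6 CPM (log2 fold change -0.023, SE 0.14, adjusted p = 0.898). The sign of Pecam1, Tie1 and Eng was not stable, each turning positive with total count scaling, without Ade mouse 207 or without Con mouse 202.

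**Figure D3:**
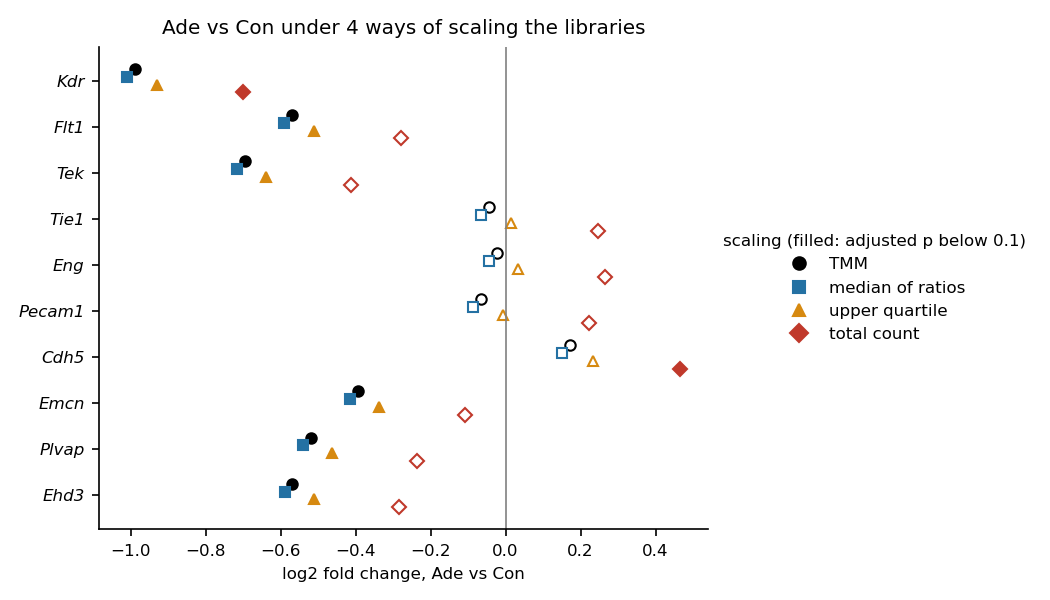
Log2 fold change of each gene in Ade vs Con under 4 scalings of the libraries, filled where the adjusted p-value was below 0.1. TMM, median of ratios and upper-quartile scaling call the same 6 genes lower, while total count scaling shifts every gene to the right and leaves Kdr called lower and Cdh5 called higher, with Pecam1, Tie1 and Eng above 0.

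The first digit of the mouse number moved with the result. Among mice with a first digit of 2 (2 Ade, 2 Con) all 10 members were lower in the Ade mice, with a median difference of -0.89 log2 CPM, and so they were among mice with a first digit of 3 (1 Ade, 2 Con, median -0.47). Among mice with a first digit of 4 (3 Ade mice against Con mouse 403 alone) 3 of the 10 were lower, with a median difference of 0.15. For Kdr the 3 differences were -1.65, -1.55 and -0.22. With the digit as a block in the edgeR fit, the same 6 members were called lower and 0 higher (66.7% of all genes called, 31.8% lower and 34.9% higher), Kdr at -1.19 (SE 0.21, adjusted p = 0.000376) and Ehd3 at -0.80 (SE 0.21, adjusted p = 0.00491).

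Ratios of counts within a library do not depend on its scaling. These pairs were chosen with their values known and are given as a description, without a test and with nothing read from them. The share of all gene pairs whose ratios do not overlap was not computed, and 42.5% of single genes did not overlap between the Con and Ade groups. The ratio of Kdr to Cdh5 counts was 1.56 to 2.02 for Con, 0.553 to 0.973 for Ade and 0.778 to 0.924 for Ade + IMC. Every mouse fed adenine, with or without IMC, was below every Con mouse.

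For the VEGF receptor pair the ratio of Kdr to Flt1 was 1.04 ± 0.101 for Con (SD, n = 5), 0.761 ± 0.122 for Ade (n = 6) and 0.842 ± 0.139 for Ade + IMC (n = 6), and the Con and Ade ranges overlapped slightly (lowest Con 0.883, highest Ade 0.891). The ratio of Tek to Tie1 was 1.07 to 1.47 in the Con mice and 0.619 to 1.06 in the Ade mice, without overlap. In the Ade + IMC mice it was 0.756 to 1.13, which reached past the lowest Con mouse. The ratio of Ehd3 to Pecam1 was 0.494 to 0.621 in the Con mice and 0.281 to 0.463 in the Ade mice, and its 0.359 to 0.570 with IMC reached into the Con range. The ratio of Plvap to Pecam1 was 1.97 ± 0.264 for Con, 1.42 ± 0.273 for Ade and 1.53 ± 0.312 for Ade + IMC (SD), with overlap of the Con range (from 1.70) and the Ade range (up to 1.86). The ranges of Ehd3 to Plvap overlapped throughout (0.248 to 0.340 and 0.228 to 0.361).

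**Figure D4:**
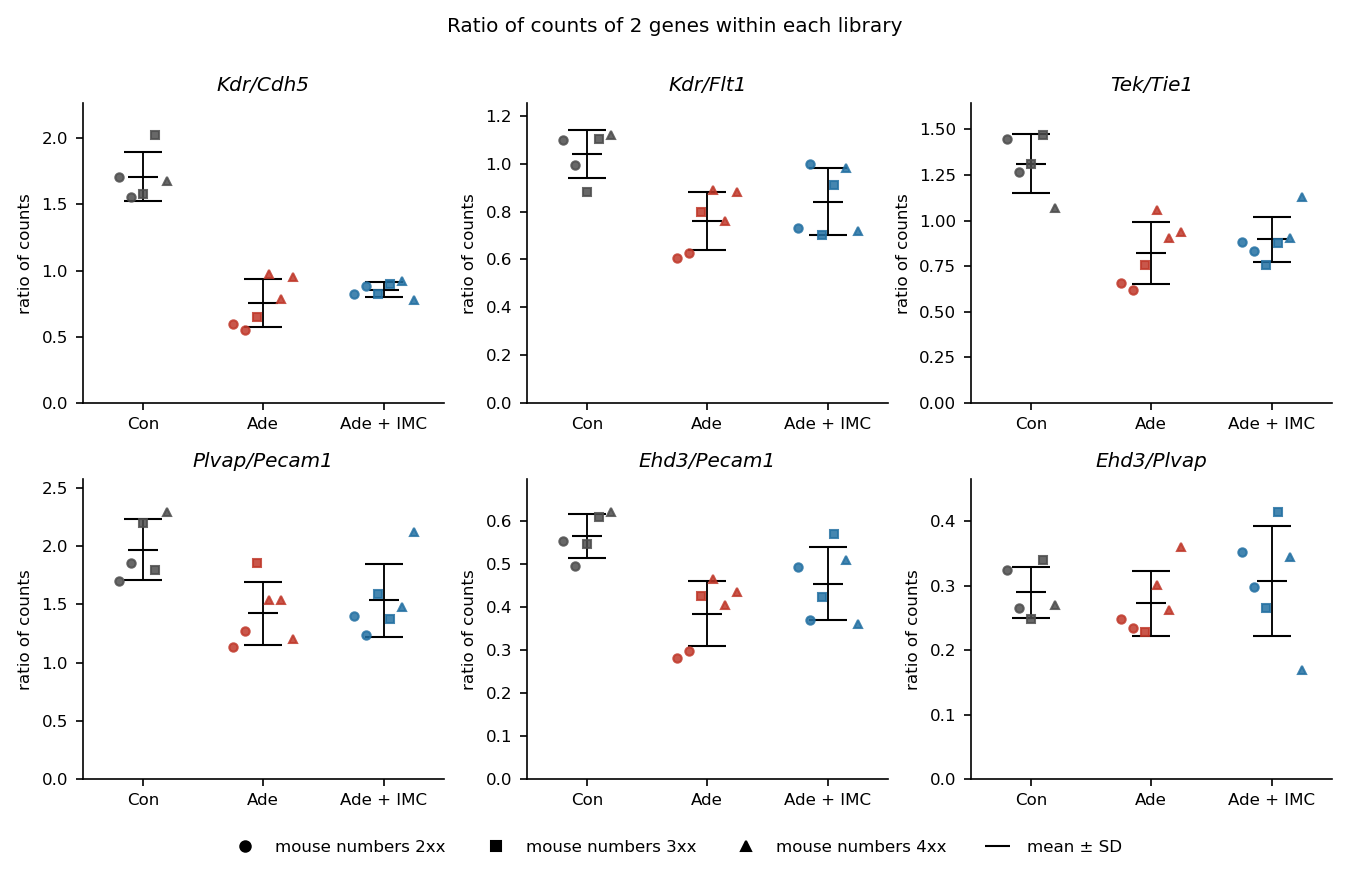
Ratio of the counts of 2 genes in each library on a linear axis from 0, with points for mice, marker shape for the first digit of the mouse number and bars for the mean ± SD. The Kdr/Cdh5 ratio of every Ade and Ade + IMC mouse lies below 0.973 or at it, and that of every Con mouse at 1.56 or above, while the Ehd3/Plvap ratios of the groups overlap.

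The Ade + IMC group was set against the Con group to see where the members stood under adenine when IMC was also fed. Of 14578 genes tested by edgeR, 63.2% were called (32.3% lower and 30.9% higher), and of the 10 members 2 were called lower (Kdr and Flt1), 1 higher (Cdh5) and 7 did not pass. With total count scaling, which moved the median of all genes from -0.016 to 0.27 and the share of calls that are higher from 48.9% to 77.0%, 0 were called lower and 4 higher (Pecam1, Cdh5, Tie1 and Eng), against 67.1% of all genes called (15.4% lower and 51.7% higher). DESeq2 called 48.1% of genes (22.4% lower and 25.7% higher), with Kdr lower and Cdh5 higher, and so did the first digit as a block (63.1% called, 32.4% lower and 30.7% higher). The members' median log2 fold change was -0.10. This comparison shares its control mice with that of Ade and Con.

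Kdr ran from 50.6 to 121.2 CPM in the Ade + IMC mice, with a median of 84.7 CPM, and overlapped the Con range through mice 212 and 410 (log2 fold change -0.58, SE 0.19, adjusted p = 0.0215). It lost its call with total count scaling alone (-0.29, adjusted p = 0.232). Flt1 ran from 72.2 to 123.2 CPM (log2 fold change -0.31, SE 0.15, adjusted p = 0.0944), and Cdh5 from 61.4 to 134.1 CPM (log2 fold change 0.40, SE 0.18, adjusted p = 0.0765). Both calls were near the threshold, and Flt1 lost its call in 16 of 20 alternatives and Cdh5 in 9 of 20. Tek, at 41.2 to 86.6 CPM, had a log2 fold change of -0.33 (SE 0.17, adjusted p = 0.117) and became called without Con mouse 403 (-0.45, adjusted p = 0.0283) or without mouse 410 (-0.41, adjusted p = 0.0618).

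The remaining members differed less from the Con level than Kdr, Flt1, Cdh5 and Tek did. Ehd3 ran from 42.6 to 93.6 CPM in the Ade + IMC mice (log2 fold change -0.12, SE 0.18, adjusted p = 0.603), Plvap from 160.5 to 292.9 CPM (-0.20, SE 0.16, adjusted p = 0.302) and Emcn from 71.6 to 145.4 CPM (-0.087, SE 0.16, adjusted p = 0.675). Log2 fold changes were 0.16 for Pecam1, 0.22 for Tie1 and 0.24 for Eng, with adjusted p-values of 0.375, 0.197 and 0.123. These lay further from 0 than in Ade vs Con (-0.065, -0.044 and -0.023). Tie1 and Eng became called with upper-quartile and with total count scaling, and without Con mouse 202 or Ade + IMC mouse 310.

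The comparison of Ade + IMC with Ade asks whether IMC changed these transcripts in kidneys exposed to adenine. All 10 members had a higher mean in the Ade + IMC group and 0 were called, as were 0 of all 14696 genes tested by limma (percent called 0). Without adjustment 988 genes (6.72%) had a p-value below 0.05 and 0 of the 10 members did. By other tools 0 genes were called by edgeR on the recovered reads and 37 by DESeq2 (0.174%, of which 0.0989% higher and 0.0753% lower), none a member. The paper reports many more genes for this comparison, with DESeq2 at the same threshold, and the source of that difference was not tested. On the scale of log2(normalized count + 1) the differences ran from 0.24 (Cdh5, SE 0.17) to 0.52 (Ehd3, SE 0.27), with a median of 0.33 against 0.0055 for all genes, and adjusted p-values from 0.742 to 0.811.

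Kdr had a median of 63.7 CPM in the Ade mice and 84.7 CPM in the Ade + IMC mice, with a log2 difference of 0.45 (SE 0.24, adjusted p = 0.749). Tek, at medians of 49.4 and 66.5 CPM, had a log2 difference of 0.45 (SE 0.23, adjusted p = 0.749), and Eng, at 187.8 and 219.7 CPM, one of 0.31 (SE 0.15, adjusted p = 0.742). For each of the 10 members the ranges of the 2 groups overlapped. The 10 levels move together from mouse to mouse, so their shared sign is not 10 observations.

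The 2-sided exact permutation test of single members, over all 924 splits of the 12 mice, gave unadjusted p-values from 0.0779 (Eng) to 0.249 (Cdh5), where 0.00216 is the smallest possible. Over the 180 splits that keep the group sizes within each first digit, the same exact permutation test gave unadjusted p-values from 0.0167 (Emcn) to 0.117 (Cdh5), with 0.00556 the smallest possible. Every member was higher with IMC within each digit, though 1 Ade mouse had a first digit of 3, where Plvap differed by 0.011. For Kdr the differences were 1.13 among mice with a first digit of 2, 0.51 with 3 and 0.14 with 4. With the digit as a block in limma, 0 members were called (log2 differences 0.32 to 0.59, adjusted p from 0.114 to 0.377), while 9 of the 10 had an unadjusted p-value below 0.05 against 13.7% of all genes. In that fit 133 genes were called (0.905%, of which 0.497% higher and 0.408% lower). The levels of the 10 members move together, so the 9 low p-values are not 9 separate observations.

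The members varied together within groups. After each group's mean was subtracted, each member's log2 CPM correlated with the mean of the others over the 17 mice at Pearson's r from 0.76 (Plvap) to 0.97 (Pecam1), where the median gene had r = 0.004 with the members' mean. The values of a mouse share 1 library and its scaling, so this is a description. Con mouse 202 was the highest of its group for all 10 members and Con mouse 403 the lowest for 8. In the Ade group mouse 207 was lowest for 9 and mouse 408 highest for 9, and in the Ade + IMC group mouse 310 was lowest for all 10 and mouse 410 highest for 8.

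The 5 genes outside the list whose group-centred levels were most like the members' mean over the 17 mice were Npr1, the receptor of atrial natriuretic peptide (r = 0.96), Plpp1 (r = 0.96), She (r = 0.95), Acpp (r = 0.93) and Tm4sf1 (r = 0.93), of 15054 genes ranked.

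The markers of podocytes, which surround the glomerular capillaries, shared some of their extreme mice with the members. The summed level of 4 podocyte markers was 712.5 to 906.6 CPM for Con, 268.2 to 931.1 CPM for Ade and 614.6 to 1345 CPM for Ade + IMC. Its lowest and highest Ade mice were 207 and 408 and its highest Ade + IMC mouse was 410, as for most members. Its other extremes were different mice, with 301 lowest (712.5 CPM) and 302 highest in the Con group, where mouse 403 had 864.0 CPM, and with 412 lowest in the Ade + IMC group (614.6 CPM) next to 310 (623.4 CPM). The summed stromal and mural markers had 202 as the highest Con mouse, 207 and 408 as the lowest and highest Ade mice and 310 and 410 as the lowest and highest Ade + IMC mice, as for most members, while their lowest Con mouse was 201. Of the 4 markers 0 were called lower and 1 (Synpo, log2 fold change 0.34, adjusted p = 0.0852) was called higher in Ade vs Con, but DESeq2 and median of ratios scaling called 0 higher, and the digit as a block 0 higher and 3 lower. The part of the podocyte and stromal markers in the members' results was not tested.

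Markers of other cell types differed between the groups as well, where 35.1% of all genes were called higher and 32.2% lower in Ade vs Con. All 6 leukocyte markers rose in the Ade group, Csf1r by the least (log2 fold change 0.90), their summed level being 136.3 to 162.6 CPM for Con and 379.9 to 637.6 CPM for Ade. Of 7 stromal and mural markers 6 rose (5 to 7 over the other scalings, the block and DESeq2), led by Dcn (2.53), with summed levels of 485.8 to 577.6 CPM and 815.6 to 1140 CPM, and of 6 tubule markers 5 fell, led by Lrp2 (-2.65). Of the 3 platelet markers tested by edgeR, Pf4, which macrophages also express, rose (3.24) and Gp1ba fell (-0.47, adjusted p = 0.0853, but 0.537 with total count scaling and not called by DESeq2, with upper-quartile scaling or with the block). No marker of these lists was at 0 in all mice of a group. Pecam1 is also made by leukocytes and platelets and Eng by macrophages and stromal cells, and the part of those cells in their levels was not tested.

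The ligands and partners of the receptors were read from lists chosen with earlier results known. Among 8 other VEGF ligands and receptors 4 rose and 1 fell in the Ade group, against 3 higher with DESeq2, median of ratios scaling or the block and 5 higher with upper-quartile or total count scaling. Of all genes 35.1% were called higher and 32.2% lower (54.7% and 17.1% with total count scaling), which holds for each list below. Vegfa, the ligand of both Kdr and Flt1, fell, the Con mice having 422.6 to 488.3 CPM and the Ade mice 171.7 to 294.3 CPM, without overlap (log2 fold change -0.87, adjusted p = 6.29e-05), and the Ade + IMC mice had 254.5 to 365.4 CPM (-0.54 against Con, adjusted p = 0.000332). Of all genes compared in CPM, 20.1% were lower in every Ade mouse than in every Con mouse. Pgf, the placental growth factor that binds Flt1 but not Kdr, was low, with 5 to 27 counts a library, and rose, the mean being 1.09 ± 0.246 CPM for Con (SD, n = 5) and 2.36 ± 0.897 CPM for Ade (n = 6) (log2 fold change 1.13, adjusted p = 0.00958).

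Of the 4 genes of the angiopoietin pathway 3 fell and 1 rose, where 32.2% of all genes were called lower and 35.1% higher. Angpt1, the activating ligand of Tek, had 13.3 to 22.5 CPM in the Con mice, against 5.11 to 10.7 CPM with adenine (log2 fold change -1.29, adjusted p = 9.03e-05). Angpt2, the ligand that endothelial cells make themselves, ran widely in the Con mice, from 9.22 to 64.9 CPM, and from 13.7 to 24.0 CPM in the Ade mice (-1.05, adjusted p = 0.0357). Ptprb, the endothelial phosphatase that dephosphorylates Tek, fell (-0.53, adjusted p = 0.0222), and Angpt4, read at 4 to 25 counts a library in these groups, rose (1.04, adjusted p = 0.0269). With total count scaling Angpt2 and Ptprb were not called (adjusted p = 0.109 and 0.245).

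Endoglin's partners moved in both directions. Acvrl1, the kinase receptor that works with Eng, rose, every Ade mouse (34.2 to 56.3 CPM) being above every Con mouse (25.3 to 30.8 CPM, log2 fold change 0.80, adjusted p = 5.33e-05). Of all genes compared in CPM, 42.5% did not overlap between these groups, in either direction. Of 9 genes tested of endoglin and BMP signalling 2 rose and 4 fell, Smad9 by the most (-1.58), but with total count scaling 4 were called higher and 4 lower. Among all genes 35.1% were called higher and 32.2% lower (54.7% and 17.1% with total count scaling). The median of this list was -0.16, and 0.13 with total count scaling, so the median has no stable direction. Gdf2 and Bmp10 were on this list and were not analysed here.

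Of 17 further pan-endothelial genes 9 rose and 2 fell in the Ade group, with a median log2 fold change of 0.44 (0.73 with total count scaling, when 14 were called higher and 0 lower). The called genes ran from Adgrl4, an adhesion receptor of sprouting vessels (-0.52, adjusted p = 0.0412, but 0.332 with total count scaling), to Ecscr (1.55, adjusted p = 2.85e-06), which had 5.45 to 7.65 CPM in the Con mice and 13.3 to 21.8 CPM in the Ade mice. Against the background of 32.2% lower and 35.1% higher among all genes, 6 of 10 members fell and 9 of 17 of these genes rose, and the difference between the lists was not tested.

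Among 13 endothelial transcription factors 7 rose and 2 fell (10 higher and 1 lower with total count scaling, 7 higher and 1 lower with upper-quartile scaling), with Lyl1 (log2 fold change 2.57), which is also expressed by leukocytes, at one end and Gata2 (-0.48) at the other. All 6 leukocyte markers rose as well, and the part of leukocytes in this list was not tested. Among all genes 35.1% were called higher and 32.2% lower (54.7% and 17.1% with total count scaling). Arterial genes were called higher in 6 of 7 cases, from Jag1 (0.42) to Gja4, a connexin of arteries (0.77), and none was lower, while DESeq2 and the digit as a block called 5 higher and total count scaling all 7. Of the 5 venous genes 4 passed edgeR's filter on low counts, and Selp (4.14), the leukocyte-binding P-selectin that platelets also carry, and Vwf (1.41) rose while Nr2f2 and Ephb4 did not pass the test. Selp had 0 to 4 counts a library in the Con mice and 19 to 64 in the Ade mice. Ackr1, a venular chemokine receptor, did not pass that filter, with 0 to 1 counts in the Con mice and 6 to 12 in the Ade mice. DESeq2 tested all 5 and called 3 higher.

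The caveolar genes and the relatives of Ehd3 were split, with 4 higher and 4 lower of 8, from Cavin2 (-1.16) to Cavin3 (1.19), and with total count scaling 4 were higher and 2 lower. The shares among all genes were 35.1% higher and 32.2% lower. Among the 6 other glomerular and capillary genes Igfbp3, a binding protein of insulin-like growth factors, fell (adjusted p = 1.62e-05), the Con mice having 266.1 to 364.9 CPM and the Ade mice 65.6 to 165.6 CPM, and Nostrin, a trafficking protein of nitric oxide synthase, rose (1.19). Of the lymphatic genes 3 passed edgeR's filter, and Prox1 fell (-0.70, adjusted p = 0.0450) while Mmrn1 and Reln did not pass the test. Lyve1, which did not pass edgeR's filter there, was called higher by edgeR in Ade + IMC vs Con (1.83, adjusted p = 0.0119), at 7 to 35 counts a library against 1 to 10. Prox1 is also expressed by tubule cells, and it was not called with total count scaling (adjusted p = 0.196).

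Between the Ade + IMC and Ade groups limma called none of the genes in these lists, and their calls by DESeq2 or with the block are not given here. Vegfa had a log2 difference of 0.38 (adjusted p = 0.711), Angpt1 0.23 (adjusted p = 0.839), Angpt2 0.65 (adjusted p = 0.706), Ptprb 0.24 (adjusted p = 0.834) and Acvrl1 0.14 (adjusted p = 0.869). Of the 17 pan-endothelial genes 15 had a positive difference, with a median of 0.18.

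**Figure D5:**
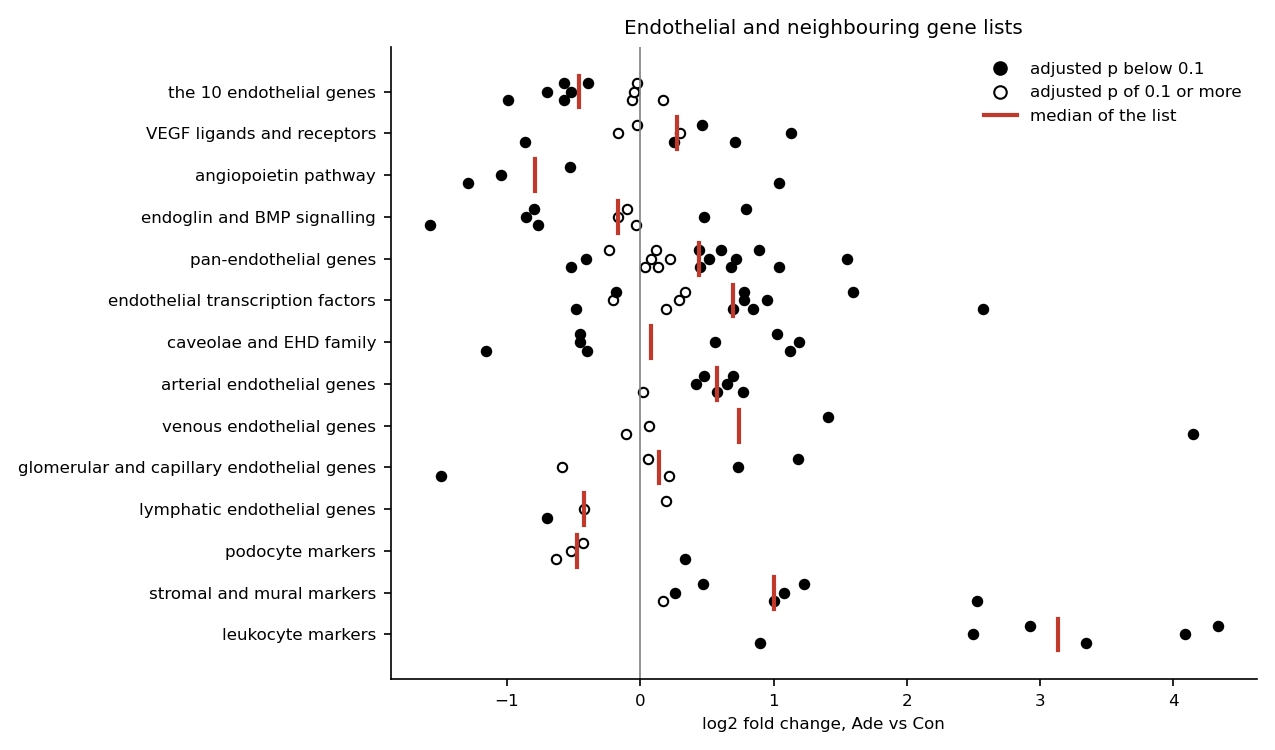
Log2 fold change in Ade vs Con of the tested genes of each list, 1 point a gene, filled where the adjusted p-value was below 0.1, with the list's median as a red bar. The 10 endothelial genes have a median of -0.46 and the 17 pan-endothelial genes one of 0.44. With total count scaling both move up, to -0.17 and 0.73, and the median of endoglin and BMP signalling turns positive.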

How the data were processed

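Kidney RNA of 17 mice was analysed. RNA libraries were sequenced by the authors as short single-end reads, aligned with STAR to mm10 according to the methods, while the submitters' processing notes name Trimmomatic 0.39, Bowtie2 2.2.5 and HTSeq 0.9.1. The use of strand is not given in the sources used here. The authors deposited raw counts per gene for the Con and Ade mice. The adenine-fed mice, with and without IMC, also have a deposited signal per gene, which is the count over DESeq2's size factor. Whole reads were recovered from 100% of these values (tolerance 1e-06 reads), and they differed from the raw counts in 0 of 123804 values. Another deposited table holds the authors' own log2 fold changes and p-values for Ade + IMC vs Ade, of which the gene names alone were used. Within groups, every pair of libraries differed by more than counting noise (lowest chi-square over its degrees of freedom 3.97).

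The Ade and Con groups, and the Ade + IMC and Con groups (recovered reads), were compared by edgeR 4.0.16 (quasi-likelihood test, TMM scaling, its filter on low counts). For Ade + IMC vs Ade, limma 3.58.1 (trend option) was run on genes whose mean normalized count reached 10, as log2 after adding a pseudocount of 1. Calls used a Benjamini-Hochberg adjusted p-value below 0.1 over all genes tested. Group-centred levels were log2 CPM with a prior count of 2. Alternatives changed the tool (DESeq2 1.42.0), scaling, filter, pseudocount, threshold, samples in the fit, block and mice included (R 4.3.3). The block combined with edgeR for Ade + IMC vs Ade was added after the data were seen. The tests were tested on simulated data. Exon lengths and positions came from GENCODE on GRCm38.

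The members, gene lists and ratio pairs were chosen with earlier results of these data known. Named from each list are the called genes with the largest and smallest log2 fold change in Ade vs Con, all genes of lists of 5 or fewer, the partners Ptprb, Angpt1, Angpt2, Vegfa, Pgf and Acvrl1, Apoe, and the 5 genes most like the members. Some genes of the marker lists are not reported here by name.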

Additional observations from a re-analysis of the deposited data

Results flagged for a closer look

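Of 78 groups of values examined (the level of each member and of 6 partner genes, 6 count ratios and 4 summed marker levels, each in 3 groups), 7 held a mouse whose gap to its nearest neighbour took up more of the group's range than Dixon's 95% critical value allows. Chance flags about 1 in 20 groups, or 3.9 here. None of the 7 was the level of a member or a ratio of members.

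Con mouse 403 stood apart in 2 of these, with the highest Vegfa level of its group (488.3 CPM, the others at 422.6 to 438.9 CPM) and the lowest Ptprb level (115.4 CPM, the others at 171.4 to 184.2 CPM). Ade mouse 207, lowest for 9 of the 10 members in its group, had the lowest Acvrl1 level (34.2 CPM against 50.7 to 56.3 CPM). Pgf was lowest in Ade mouse 407 (0.676 CPM against 2.29 to 3.12 CPM) and highest in Ade + IMC mouse 211 (3.71 CPM against 1.94 to 2.39 CPM). Ade + IMC mouse 410 had the highest summed podocyte markers of its group (1345 CPM against 614.6 to 865.01 CPM), and mouse 311 the highest summed leukocyte markers (818.9 CPM against 338.6 to 513.9 CPM).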

How the results depend on the processing

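In Ade vs Con the 6 calls among the members numbered 4 to 6 when each mouse was left out, and total count scaling left 1 lower and 1 higher. Values that changed sign had small effects. With total count scaling Pecam1 was 0.22, Tie1 0.25 and Eng 0.26. With upper-quartile scaling Tie1 was 0.015 and Eng 0.034, and with a mean count of at least 50 Eng was 0.021. Leave-one-out values ran from -0.15 to 0.041 for Pecam1, -0.13 to 0.050 for Tie1 and -0.087 to 0.073 for Eng.

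In Ade + IMC vs Con the counts of 2 lower and 1 higher became 1 lower with DESeq2, median of ratios scaling, the 17-mouse fit or the first digit as a replicate block, 1 lower and 3 higher with upper-quartile scaling, 0 lower and 4 higher with total count scaling, 0 higher with no filter on low counts, 1 lower and 2 higher with a mean count of at least 50, and 1 lower and 0 higher at an adjusted p-value below 0.05. Leaving out 1 mouse gave 1 to 3 lower and 0 to 3 higher. With total count scaling Emcn was 0.20, Ehd3 0.17 and Plvap 0.077, and leave-one-out values of Emcn ran from -0.20 to 0.0065.

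In Ade + IMC vs Ade no alternative called a member. Genes called numbered 37 with DESeq2, 133 with the first digit as a replicate block in limma and 104 with that block in edgeR on recovered reads, against 0. Mouse numbers share only their first digit, which pairs no mice by the labels, and the replicate block changed 1 call among the members, Flt1 in Ade + IMC vs Con (-0.30, adjusted p = 0.125). The cause of these changes was not tested. The members had 167 or more counts a library, while Pgf, Angpt4 and Selp rest on few counts. The effect of depth, which differed between the groups, was not tested.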
